A study of Homo sapiens with 2 samples.

Results

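The genes described here are EGFR family receptors and the ligands that activate them: EGFR, ERBB3, ERBB4, EREG, TGFA, HBEGF, BTC, EGF, NRG1 and EPGN. They were taken as the rows of the deposited table that the platform annotation pairs with 1 of these symbols alone, with the row of highest mean kept for each gene, and all 10 were found among 22421 named genes. ERBB2, the gene of HER2, was left out because its row also carries the name of a microRNA gene. The values come from 2 arrays of NCI-N87, a gastric carcinoma cell line with amplified ERBB2: 1 array of the untreated parental cells and 1 of a line labelled TDM-1 resistant. TDM-1 (trastuzumab emtansine) joins an antibody against HER2 to a microtubule poison. The labels do not say whether the resistant line is a clone or a pool, how it was selected or whether drug was present at harvest. Both groups are the same cell line, and the title of the series speaks of cells before and after drug treatment.

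Receptors of this family sit in the plasma membrane, pair with each other when a ligand binds, and signal through the RAS-ERK and PI3K-AKT pathways. EGF, TGFA and EPGN encode ligands of EGFR, EREG, HBEGF and BTC encode ligands of both EGFR and ERBB4, and NRG1 encodes a neuregulin, a ligand of ERBB3 and ERBB4. HER2 has no known ligand of its own and acts as a partner of the other receptors. The ligands are made as membrane-bound precursors and are released by proteases at the cell surface.

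Each group has 1 array, so no difference below could be set against the spread between cultures, and no test, error or p-value is given. Each difference is the resistant value less the parental one, in units of the deposited scale, taken as log2. A gene was called higher or lower when its difference was at least 1, a 2-fold difference on this scale, and its higher value reached 5.79, the median over all genes of the higher of the 2 values, referred to as the floor. Of 11211 genes that reached the floor, 9.59% were called higher, 9.12% lower and 18.7% either way, and their median absolute difference was 0.41. A positive difference was found in 50.5% of them. Of 11 genes listed as markers of epithelial and gastric cells, 8 lay at or above the floor, 6 of the 8 with a negative difference (median -0.28). These 6 include the adaptor gene GRB7 (15.54 and 15.42), which does not mark a cell type. The epithelial adhesion gene EPCAM was 13.18 and 13.75. The E-cadherin gene CDH1 was called lower (15.07 and 13.97, a difference of -1.10), and CLDN18, TFF1 and TFF3 lay under the floor on both arrays. Of 10 measured markers of immune, fibroblast and endothelial cells, 9 lay under the floor on both arrays, the exception being the lysosomal and macrophage gene CD68 (10.56 and 10.30).

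EGFR and the ligand gene EREG were called higher on the resistant array, and the ligand gene TGFA was called lower. ERBB3, HBEGF and BTC lay at or above the floor on both arrays and were not called. ERBB4, EGF, EPGN and NRG1 did not reach the floor on either array, so the size rule makes no call for them. Thus 6 of the 10 genes could be called, and 3 of these 6 were, or 50% beside 18.7% of all genes that reached the floor. Of these 6, 3 had a positive and 3 a negative difference, with a median of 0.02, beside 0.01 for all genes that reached the floor. With 6 callable genes that were picked with earlier results known, these counts describe the genes and say nothing particular about the family.

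**Figure D1:**
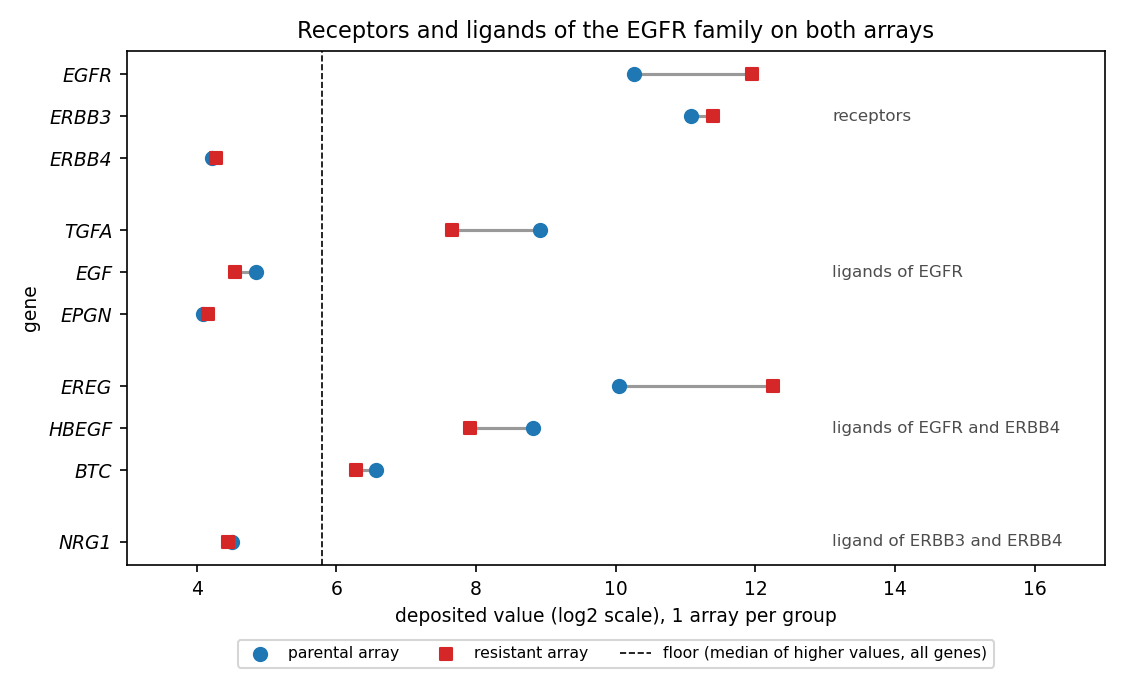
Deposited values (x axis, log2 scale) of the 10 genes (y axis, grouped by role) on the parental array (circles) and the resistant array (squares), with 1 array per group and no error bars; the dashed line is the floor of 5.79. EGFR and EREG sit further right on the resistant array, TGFA and HBEGF further left, and 4 genes lie under the floor on both arrays.

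Among the receptors, EGFR had the largest difference. EGFR encodes the receptor of epidermal growth factor, a tyrosine kinase that pairs with HER2. Its value was 10.26 in parental and 11.95 in resistant cells, a difference of 1.69 (3.22-fold). The resistant array was the higher one, and 371 of the 11211 genes that reached the floor, 3.31%, had a difference as high or higher, EGFR included.

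ERBB3 encodes a receptor with an impaired kinase that signals mainly as the partner of HER2. It was 11.08 in parental and 11.40 in resistant cells, a difference of 0.32 (1.25-fold). This lies within the median absolute difference of 0.41, and 30.4% of the genes that reached the floor had a difference as high or higher. ERBB4, a receptor kinase for neuregulins and for the ligands it shares with EGFR, was 4.22 and 4.28, under the floor on both arrays. The absence of the transcript cannot be read from such values.

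The ligands shared by EGFR and ERBB4 differed among themselves. EREG, which encodes epiregulin, was 10.05 in parental and 12.26 in resistant cells, a difference of 2.21 (4.63-fold) and the largest of the 10 genes in size. Only 178 of the 11211 genes, 1.59%, had a difference as high or higher. HBEGF, which encodes the heparin-binding ligand, went the other way, at 8.82 in parental and 7.91 in resistant cells. Its difference of -0.91 (1.88-fold) fell just short of the size rule and was not called, and 10.4% of genes had a difference as low or lower. BTC, which encodes betacellulin, was 6.57 and 6.28, a difference of -0.29 that 30.5% of genes matched or passed in that direction.

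Of the ligands grouped with EGFR alone (TGFA, EGF and EPGN), only TGFA reached the floor. TGFA encodes transforming growth factor alpha, an activator of EGFR in many epithelia. Its value was 8.92 in parental and 7.66 in resistant cells, a difference of -1.27 (2.41-fold lower). TGFA and EREG therefore stood on opposite sides of the size rule, one lower and one higher. EGF was 4.85 and 4.55, and EPGN, which encodes epigen, was 4.09 and 4.17, both under the floor on each array.

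NRG1, the neuregulin gene among the 10, also lay under the floor. Its row of highest mean was 4.50 in parental and 4.46 in resistant cells. A second row with the same symbol was 3.72 and 3.35, so neither of the 2 rows reached the floor. NRG1 was the only one of the 10 genes with more than 1 row.

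**Figure D2:**
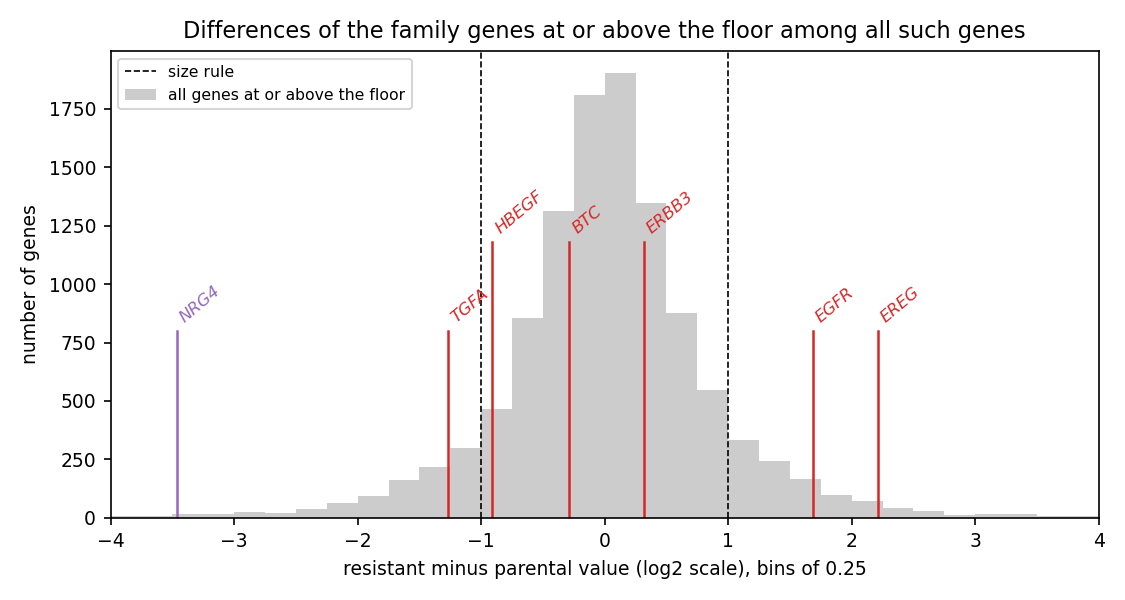
Number of genes (y axis) by resistant minus parental value (x axis, log2 scale, bins of 0.25) for all genes that reached the floor, with the 6 callable genes as red lines and NRG4 as a purple line; dashed lines mark the size rule at -1 and 1, and genes beyond 4 in either direction are not drawn. EREG (2.21) and EGFR (1.69) lie beyond the upper limit, TGFA (-1.27) and NRG4 (-3.47) beyond the lower one, and HBEGF (-0.91) just inside it; line heights carry no value.

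Other ligands of the family, outside the 10, were read from a separate list. NRG4, a neuregulin gene whose product binds ERBB4, was 8.92 in parental and 5.45 in resistant cells. Its resistant value lay under the floor, which gives at least 8.76-fold lower on the resistant array, and the measured difference was -3.47. Only 74 of the 11211 genes, 0.66%, had a difference as low or lower, and on chromosome 15 only 1 of the 390 other genes that reached the floor did. NRG2 (4.98 and 5.05) and NRG3 (4.03 and 4.13) lay under the floor on both arrays, as did the receptor gene ERBB4. AREG, the gene of amphiregulin, was not analysed here.

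The median difference varied between chromosomes, so each gene was also set against the genes around it. Gene order was taken from the RefSeq gene table of GRCh38.p14, and the 10 nearest protein-coding genes on each side that reached the floor were used. EGFR lies on chromosome 7, where 541 genes reached the floor with a median difference of 0.52. Of the 540 other genes there, 117 were called higher and 15 lower, and 34 had a difference as high as that of EGFR or higher. The 20 neighbours of EGFR had a median of 0.65, 16 of them were positive, 5 were called higher and none lower. Less this median, the difference of EGFR was 1.04, and less the chromosome median it was 1.17, both smaller than the measured value and still past the size rule. How far the shift of the surrounding genes accounts for the value of EGFR was not tested.

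The genes next to EGFR were not uniformly higher. LANCL2, a lanthionine synthetase-like gene and the nearest on one side, was 7.44 and 7.06, a difference of -0.38. COBL, an actin nucleator gene and the nearest on the other side, differed by 0.87, and the adaptor gene GRB10 by 0.69. DDC, which encodes aromatic amino acid decarboxylase, had a parental value of 5.26, under the floor, and a resistant value of 7.64, at least 3.61-fold higher. Of the 20 neighbours, 2 had a measured difference as high as that of EGFR or higher, DDC (2.38) among them. FIGNL1, a DNA repair ATPase gene, was also called higher (1.49), whereas VOPP1 (0.34), ZNF713 (0.33), MRPS17 (0.65), NIPSNAP2 (0.82) and UPP1 (-0.08) were not.

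EREG, EPGN and BTC lie close together on chromosome 4, and of these only EREG was called. The 20 neighbours of EREG had a median of -0.11, with 8 positive, 3 called higher and 1 lower. The median of the 415 genes of chromosome 4 that reached the floor was 0.10. Less these medians, the difference of EREG was 2.32 and 2.11. Of the 414 other genes of the chromosome, 8 had a difference as high or higher. Among the protein-coding genes next to EREG that were measured under a single symbol, EPGN stayed under the floor and BTC differed by -0.29. AREG was not analysed here, so it is missing from these neighbours. The chemokine gene CXCL2 (5.98 and 7.38) and the membrane mucin-like gene PARM1 (7.07 and 8.59) were called higher. MTHFD2L, a folate enzyme gene, differed by -0.47, RCHY1, a ubiquitin ligase gene, by -0.59, and THAP6 by -0.28. CDKL2, a kinase gene, was at least 4.36-fold higher (5.55 and 7.91, the first under the floor). Its measured difference of 2.37 was larger than the 2.21 of EREG. It was the only 1 of the 20 neighbours with a difference as high as that of EREG.

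TGFA lies on chromosome 2, where 755 genes reached the floor with a median of -0.04. Its 20 neighbours had a median of -0.06, with 9 positive, 1 called higher and 2 lower, and none of the 5 nearest on either side was called. Less the neighbour median, the difference of TGFA was -1.20. HBEGF, on chromosome 5, had neighbours with a median of 0.05, and its difference less that median was -0.95, still short of the size rule. The 20 neighbours of NRG4 had a median of 0.06, with none called higher and 2 lower, UBE2Q2 (-1.87) and SNX33 (-1.02), which are among the 3 nearest on one side. Less that median the difference of NRG4 was -3.53. ERBB3 differed by 0.43 less the median of its neighbours and was not called.

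**Figure D3:**
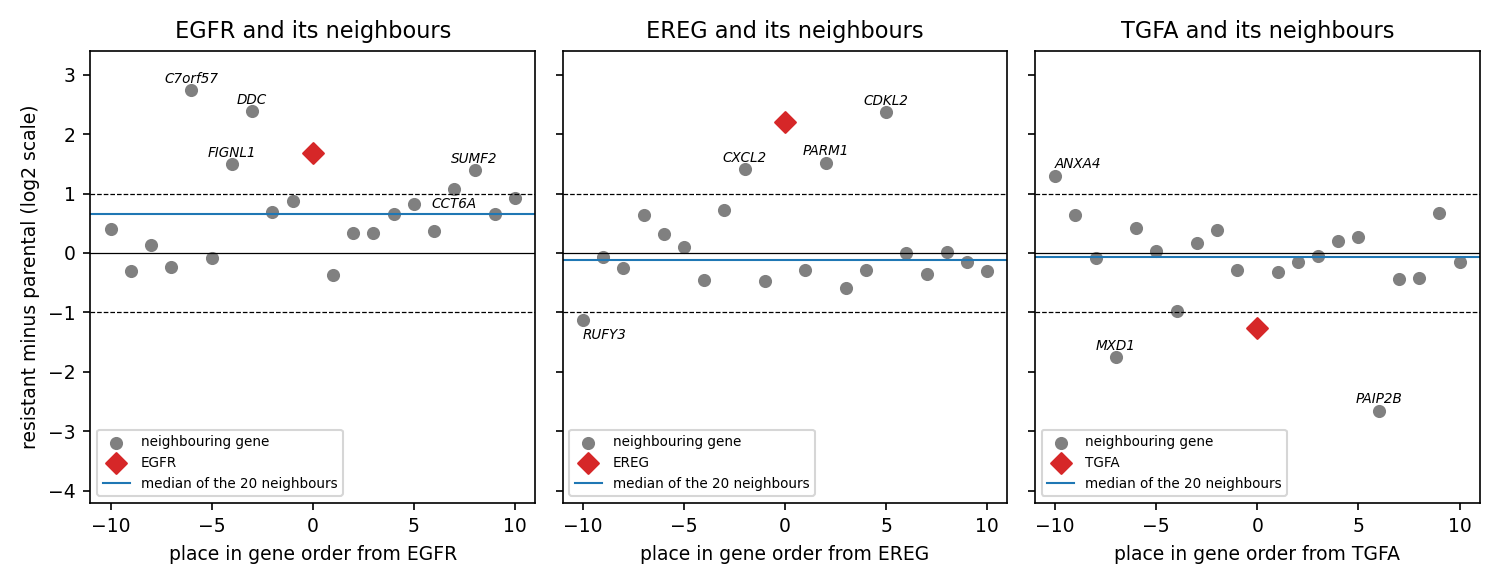
Resistant minus parental value (y axis, log2 scale) of EGFR, EREG and TGFA (red diamonds) and of the 20 neighbours of each (grey points), by place in gene order (x axis, rank from the gene, not distance); blue lines are the medians of the 20 neighbours (0.65, -0.11 and -0.06), dashed lines the size rule, and called neighbours are named. Of these 3 sets of neighbours, that of EGFR has the highest median.

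The RefSeq promoter windows (GRCh38.p14, 250 bases before to 50 after the annotated start) of the 3 called genes, EGFR, EREG and TGFA, are shown. Capitals mark the motifs found on either strand, the TATA box TATAAA and the GC box GGGCGG. The windows are EGFR at chr7:55018767-55019066 on the plus strand, EREG at chr4:74364895-74365194 on the plus strand and TGFA at chr2:70553777-70554076 on the minus strand, each written 5′ to 3′ on the strand of its gene.
EGFR: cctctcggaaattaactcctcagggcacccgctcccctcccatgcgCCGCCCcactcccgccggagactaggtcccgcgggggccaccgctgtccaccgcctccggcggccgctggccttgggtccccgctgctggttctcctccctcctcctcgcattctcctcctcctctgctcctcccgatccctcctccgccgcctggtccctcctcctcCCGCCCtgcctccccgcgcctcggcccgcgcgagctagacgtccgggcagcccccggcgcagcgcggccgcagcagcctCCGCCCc
EREG: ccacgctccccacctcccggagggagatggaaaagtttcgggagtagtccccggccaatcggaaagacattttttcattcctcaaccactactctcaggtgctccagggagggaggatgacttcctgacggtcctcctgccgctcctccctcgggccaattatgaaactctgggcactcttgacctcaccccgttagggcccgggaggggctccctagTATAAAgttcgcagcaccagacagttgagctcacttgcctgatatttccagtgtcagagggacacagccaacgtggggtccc
TGFA: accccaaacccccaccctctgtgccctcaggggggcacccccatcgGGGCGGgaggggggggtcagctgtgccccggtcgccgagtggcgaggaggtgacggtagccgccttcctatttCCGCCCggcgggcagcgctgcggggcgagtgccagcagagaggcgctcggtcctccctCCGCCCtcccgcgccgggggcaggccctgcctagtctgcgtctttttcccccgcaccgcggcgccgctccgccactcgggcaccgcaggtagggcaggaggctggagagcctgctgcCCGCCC

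The windows of EGFR and TGFA resembled each other in composition. Both had a GC content of 75.3%, with 33 CG dinucleotides in EGFR and 30 in TGFA. This GC content was higher than that of 91.0% of 35116 promoter windows, those of chromosome 8 left out. EGFR held 3 GC boxes and TGFA 4, and neither held a TATA box. EREG had a GC content of 57.7%, near the median of 58.7% over the 35116 windows, with a TATA box 32 bases before the start and no GC box.

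Windows were examined for 8 of the 10 genes and for NRG4; those of ERBB3 and NRG1 were not used here. EPGN, the neighbour of EREG that lay under the floor, also held a TATA box, 29 bases before the start. HBEGF held 5 GC boxes, and ERBB4 and BTC 1 each. EGF held the AP-1 motif TGANTCA 17 bases before its start. NRG4 held TATA boxes 8 bases before its start and at base 16 of the transcript. Over all windows outside chromosome 8, 45.0% held the GC box, 11.5% the TATA box and 7.71% the AP-1 motif. The cyclic AMP response motif TGACGTCA (1.85% of the windows outside chromosome 8) and the E box CACGTG (7.26%) were in none of the 9 windows examined. The letters describe these windows only and show no binding of any factor. Whether the windows bear on the differences between the arrays was not tested.

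Genes of ligand release were called lower or not at all. The list also holds TIMP3, which encodes an inhibitor of ADAM17 and did not reach the floor (4.69 and 4.50). Of 14 measured, 10 lay at or above the floor, none was called higher and 2 were called lower. Of the 10, 7 had a negative difference (median -0.45), while 50.5% of all genes that reached the floor had a positive one. ADAM10, known from mouse cells as the main sheddase of EGF and betacellulin, was 13.84 in parental and 12.75 in resistant cells, a difference of -1.09. ADAM17, known from mouse cells as the main sheddase of the TGFA, HBEGF and EREG precursors, was 12.33 and 11.38, a difference of -0.95 that was not called. These genes and the ligand genes TGFA and HBEGF had lower resistant values, whereas EREG had a higher one. RHBDF1 and RHBDF2 encode inactive rhomboid proteins that carry ADAM17 to the surface. RHBDF1 was at least 1.88-fold lower (6.70 and 5.69, the second under the floor). Its difference of -1.01 barely passed the size rule, and RHBDF2 differed by 0.64. The share of 2 in 10 called lies close to the 18.7% of all genes. With the floor at the 75th percentile, 1 gene of the list was called lower, not 2.

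Adaptors and enzymes recruited to the active receptors differed both ways. Of 19 measured, all at or above the floor, 3 were called higher and 2 lower, or 26.3% beside 18.7% of all genes, with a median of 0.07. EPS8, an EGFR substrate that links the receptor to RAC and actin, was 9.52 in parental and 12.97 in resistant cells, a difference of 3.46 that only 45 of the 11211 genes reached or passed. PIK3CB, a catalytic subunit of PI3K, differed by 1.34, and the docking protein gene GAB2 by 1.33. SOS2, a RAS exchange factor gene, was lower (-1.19), but less the median of its neighbours it was at -0.96 and not called. GRB2, the adaptor that brings SOS proteins to the receptors, differed by -0.43. STAT3, which was chosen after its values were seen, was the other gene called lower (-1.04).

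Genes that restrain the receptors also went both ways. Of 25 measured, all at or above the floor, 3 were called higher and 2 lower, a share close to the 18.7% of all genes, with a median of -0.15. UBASH3B, which encodes a phosphatase that binds CBL and slows the breakdown of active EGFR, a role opposite to most of the list, was 7.27 in parental and 9.80 in resistant cells, a difference of 2.52. NEDD4, a ubiquitin ligase gene, differed by 1.90, and SPRY1, a feedback inhibitor of RAS-ERK signalling, by 1.70. PTPRK, a receptor phosphatase reported to act on EGFR, was lower (-1.68), but its neighbours on chromosome 6 had a median of -1.16, and less that median it was at -0.52 and not called. EPS15, an endocytic adaptor chosen after its values were seen, was lower (-1.06) and reached -0.99 less its neighbour median. Less the neighbour medians, 5 genes of the list were called higher and 1 lower: SOCS3 (1.01) and PTPN1 (1.15) were then higher and CBLB (-1.13) was lower, all chosen after their values were seen. CBL, the ubiquitin ligase that marks EGFR for breakdown, differed by -0.31, ERRFI1, an inhibitor of the EGFR kinase, by 0.41, and LRIG1, which lowers receptor levels, by 0.35. Less the neighbour medians, ERRFI1 was at -0.49, with its sign turned, and LRIG1 at 0.02.

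Genes known to be induced by these receptors through ERK were called in both directions. Of 15 measured, 13 lay at or above the floor, and 4 were called higher and 4 lower, or 61.5% beside 18.7% of all genes, with a median of 0.11 over the 13. The list was chosen with earlier results known, so this share is a description and nothing is read from it. DUSP6, an ERK phosphatase gene, was 10.35 in parental and 7.47 in resistant cells, a difference of -2.88. PHLDA1 (-2.37) and EMP1 (-1.86) were lower as well, and KLF6, a transcription factor gene, was higher (1.77). PLAUR (1.71), ETV4 (1.35), EPHA2 (-1.15) and IER3 (1.11), chosen after their values were seen, were the other called genes. Less the median of their neighbours, PHLDA1 was at -1.08, EPHA2 at -1.99 and IER3 at 0.18, the last not called. The called genes of the list thus had no common direction. Whether they bear on the values of the receptor and ligand genes was not tested.

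**Figure D4:**
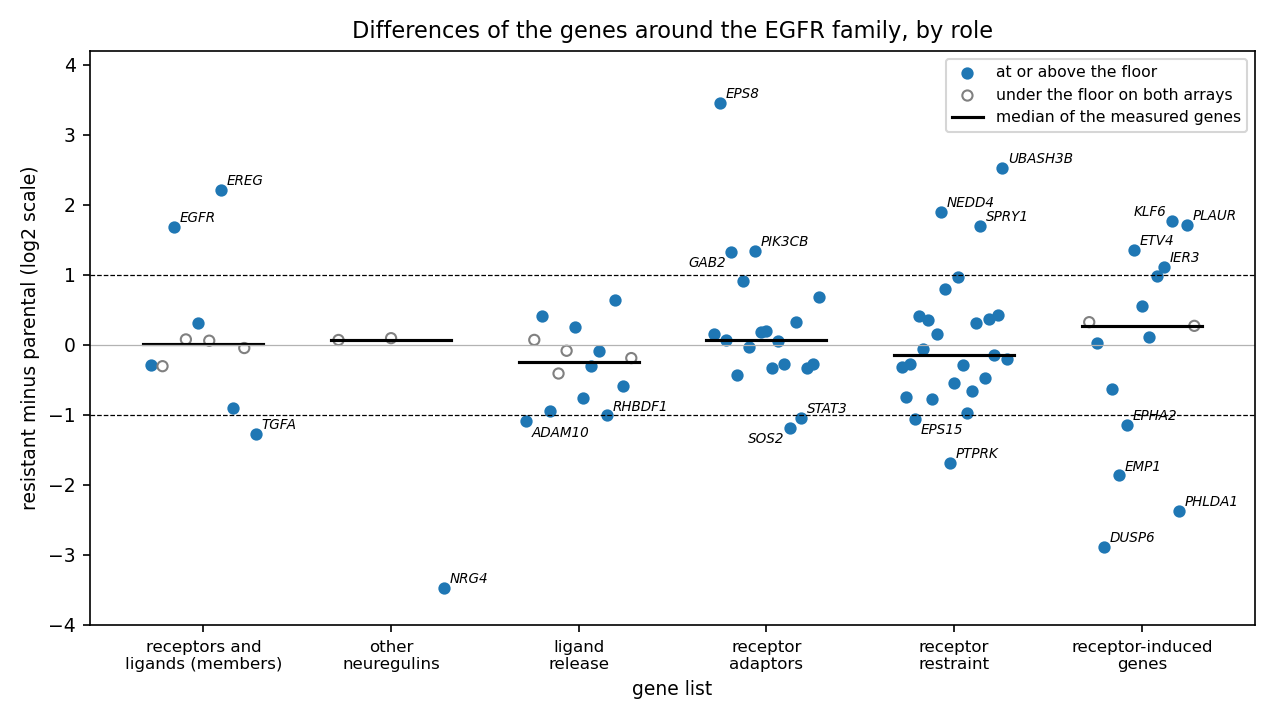
Resistant minus parental value (y axis, log2 scale) of each measured gene of the 6 lists (x axis), as filled points at or above the floor and open points under it on both arrays. Black bars are medians over all measured genes of a list, those under the floor included. They are -0.25 for ligand release and 0.27 for induced genes, where the text gives medians over genes that reached the floor. Dashed lines are the size rule, and every called gene is named. Called genes lie on both sides of 0 in the family itself and among adaptors, restraint genes and induced genes, and on the lower side only among ligand release genes and the other neuregulins.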

How the data were processed

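Biotin-labelled total RNA was read on the Human Transcriptome Array 2.0 (Affymetrix), per the labels' protocols. The authors deposited values for 70523 rows on 2 arrays. The submitters' processing notes name Affymetrix Expression Console. Its algorithm, version and normalization, the genome build and the log base (taken as 2) were not stated in the labels or the file. Column medians were 4.76 on both arrays. The highest value was 19.9, beyond the log2 range of a 16-bit scanner, so folds hold for the deposited scale and need not equal folds in brightness. Without detection calls in the table, the floor marks no detection limit, and precision is limited by the number of arrays.

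Platform symbols were updated through the RefSeq gene table (GRCh38.p14) by identifier, symbol or synonym. Names ending in -IT, -AS or -OT were not moved to a host gene by synonym. Rows with several symbols (1543) were left out. The values were handled in Python 3.11.15 with pandas 2.3.3 and statsmodels 0.14.6, and the size rule was tested on simulated data. Alternatives were other scalings, row rules, floors and thresholds, and differences less chromosome or neighbour medians.

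The genes and lists were chosen with earlier results of these data known. Genes named are the 10, from each list the called genes of largest difference (at most 4), 12 genes fixed whatever their values (AREG, NRG2, NRG3, NRG4, ADAM10, ADAM17, RHBDF2, GRB2, CBL, ERRFI1, LRIG1 and EPCAM) and up to 5 neighbours on each side of a called gene. CDH1 falls under the rule as the called gene of its list, and the other markers are named only for lying on one side of the floor. GRB7, UBE2Q2, SNX33 and TIMP3 were named after their values were seen.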

Additional observations from a re-analysis of the deposited data

How the results depend on the processing

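The differences of the 10 genes kept their calls under all scalings, row rules, floors and subtractions tried; only the size threshold changed them. The small differences of NRG1 and EPGN changed sign less the chromosome median (0.05 and -0.02). At a 4-fold threshold 1 gene was called higher (EREG) and 0 lower, and at 1.5-fold 2 were called lower (TGFA and HBEGF). Over 10 alternatives the difference of EGFR ranged from 1.04 to 1.74, that of EREG from 2.11 to 2.32, that of TGFA from -1.30 to -1.20 and that of HBEGF from -0.95 to -0.85. The median of all 10 genes, 0.007, was -0.017 with quantile normalization, -0.022 with loess centring (span 0.3) and -0.073 with the mean of a gene's rows, all near 0. Of the genes in the other lists of ligands and signalling genes, 10 were called higher and 11 lower. Of those that reached the floor, 20% were called in the ligand release list and 20% in the restraint list. The share was 26.3% among adaptors and 61.5% among induced genes, beside 18.7% of all genes. NRG4 was the only callable gene of the other ligands. At 1.5-fold 16 list genes were higher and 19 lower, and at 4-fold 2 and 3. Over all 11211 genes that reached the floor, the 1.5-fold threshold called 2167 higher and 2018 lower. The 4-fold threshold called 234 and 251, beside 1075 and 1022 at 2-fold. No paired analysis was possible because each group has 1 array. Genes under the floor (ERBB4, EGF, EPGN, NRG1) were not called with no floor either, and bounds against the floor depend on where it is set.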
